A study of Mus musculus with 12 samples.

Results

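Potassium channel genes were examined in pituitary glands of newborn mice bred for a conditional deletion of Isl1 in pituitary progenitors. The set was every gene of the individual-sample table whose symbol starts with Kcn and a further lower-case letter, which gave 95 of 27129 genes. The RNA came from glands taken on postnatal day 0 with the posterior lobe removed. The 6 glands labelled mutant had the Isl1 genotype Isl1fx/-, in which the second Isl1 allele besides the floxed one is null, and the 6 control glands had Isl1+/fx, in which it is intact. Both groups carried a floxed allele and the same Cre transgene, which is driven in pituitary progenitors, so that recombination reaches most of the hormone-producing lineages and not 1 cell type. Isl1 is a LIM-homeodomain transcription factor.

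Potassium channels let potassium leave or enter the cell and hold the membrane near its resting voltage. In hormone-secreting pituitary cells they set how often the cell fires, how much calcium enters and therefore how much hormone is released, and in epithelia they recycle potassium and drive the transport of salt and fluid. Of the 95 genes, 30 encode pore-forming subunits of voltage-gated channels, which open on depolarisation. Another 10 encode silent modifiers, which form no channel alone and alter the voltage-gated channels that they join. The inward rectifiers (15 genes) pass current best near rest and the two-pore-domain channels (14 genes) carry the background leak. The class named for channels opened by calcium or sodium inside the cell holds 8 genes, with Kcnu1 (Slo3) counted in it. Auxiliary subunits that have no pore are encoded by 16 genes. The last 2 are Kcnrg, which encodes a soluble protein known in human cells to hold back voltage-gated channels, and Kcnq1ot1, a noncoding RNA antisense to Kcnq1.

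Levels are given as FPKM (deposited by the authors and scaled to gene length and library size), which can be compared between genes, and as CPM (fragments relative to the library total, after scaling of the libraries by TMM), which served for comparisons of 1 gene between groups. The mutant libraries held 45415453 to 61533576 fragments and the control libraries 46204920 to 51535425. A gene was tested where it had at least 1 FPKM in at least 6 of the 12 libraries, and was called where the adjusted p of edgeR's quasi-likelihood test was under 0.05. The transcript of the targeted gene lay between 53.4 and 68.2 CPM in libraries labelled mutant and between 31.8 and 40.8 CPM in controls (edgeR log2 fold change 0.74, SE 0.0652, adjusted p = 8.71e-06). Isl1 was thus higher, not lower, in libraries labelled mutant. These values pool all exons and cannot show whether part of the gene was deleted, so that the labels were not checked by them, and directions are given as those of libraries labelled mutant. Markers of the labelled tissue were present: the summed level of 5 somatotrope and lactotrope genes was 39383 to 44776 CPM in mutant and 39824 to 55361 CPM in control libraries. Nearly all of this sum was Gh, with means of 41993 CPM in mutant and 46756 CPM in control libraries. The lactotrope hormone gene Prl averaged 3.31 CPM in mutant and 5.29 CPM in control libraries. The 5 pituicyte markers of the removed posterior lobe were not at 0, with sums of 263 to 349 CPM in mutant and 260.3 to 373 CPM in control libraries.

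Promoters are shown for some of the called members, as the 250 bases before the RefSeq transcription start (GRCm38.p6, the assembly also named mm10). Any TAAT or its reverse complement ATTA, the core of sites bound by homeodomain factors, is in capitals. The called members Kcnk3, Kcnk9 and Kcng1 had no promoter entry and could not be shown. Both strands were searched. Kcnrg and Kcnj16 had the highest fold changes of the set and are printed first (Kcnrg chr14:61607207-61607456, plus strand, and Kcnj16 chr11:110997237-110997486, plus strand). Kcnd2 and Kcnip3 encode a channel pore and a calcium-binding subunit that attaches to it, and changed in opposite directions (Kcnd2 chr6:21215096-21215345, plus strand, and Kcnip3 chr2:127521393-127521642, minus strand).
Kcnrg: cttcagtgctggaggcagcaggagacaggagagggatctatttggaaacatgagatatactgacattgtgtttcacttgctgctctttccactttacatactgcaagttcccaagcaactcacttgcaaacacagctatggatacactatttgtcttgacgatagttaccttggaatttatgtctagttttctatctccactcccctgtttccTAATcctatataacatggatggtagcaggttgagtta
Kcnj16: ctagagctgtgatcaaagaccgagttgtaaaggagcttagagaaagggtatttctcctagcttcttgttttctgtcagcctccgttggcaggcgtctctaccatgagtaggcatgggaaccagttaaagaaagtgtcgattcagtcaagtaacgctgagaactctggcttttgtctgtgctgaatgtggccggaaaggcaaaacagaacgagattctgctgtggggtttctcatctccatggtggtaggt
Kcnd2: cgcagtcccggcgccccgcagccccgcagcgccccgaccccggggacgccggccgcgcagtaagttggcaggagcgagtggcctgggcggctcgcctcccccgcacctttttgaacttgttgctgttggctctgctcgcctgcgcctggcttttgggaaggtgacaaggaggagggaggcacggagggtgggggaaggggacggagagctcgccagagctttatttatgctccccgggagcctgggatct
Kcnip3: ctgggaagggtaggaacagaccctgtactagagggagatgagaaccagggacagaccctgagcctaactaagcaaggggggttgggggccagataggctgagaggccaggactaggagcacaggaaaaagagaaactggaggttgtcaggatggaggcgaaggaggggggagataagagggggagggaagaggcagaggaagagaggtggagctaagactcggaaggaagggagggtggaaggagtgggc
The window of Kcnrg held 1 TAAT and the other windows held none. GC content was 41.6% for Kcnrg, 47.6% for Kcnj16, 68.8% for Kcnd2 and 58% for Kcnip3. Among the 70 members with a promoter entry, 26 windows held the motif (37.1%), against 54.9% of 32851 RefSeq promoters of the same length. The motif GTTGCC with its reverse complement GGCAAC, the core of sites bound by RFX factors of ciliated cells, stood in 9 of the 70 windows (12.9%) and in 10.4% of all promoters, and in none of the windows printed here. A match is a stretch of letters and not evidence of binding.

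Nearly every member was detected. At least 1 fragment was counted for 94 members, and Kcna3, a Shaker-type voltage-gated channel, was at 0 in all 12 libraries, which by counting error alone allows up to 0.0488 to 0.0661 CPM (3 fragments) in a library. Mean FPKM over the 12 libraries was at least 1 for 54 members and at least 10 for 10 members, and under 0.1 for 9. The 10 most abundant held 51.8% of the summed FPKM of the set. They came from 3 of the classes and include the leak channels Kcnk2 and Kcnk1, the voltage-gated Kcnh2, Kcna5 and Kcnh8, and the auxiliary subunits Kcnip3, Kcnmb4, Kcnip2 and Kcnmb2. Genes on the other strand share exonic bases with some of them, and the libraries cannot part the strands: 12.2% of the exons of Kcnk2, 8.01% of Kcnk1, and 10.7% and 20.8% of Kcnmb4 with each of 2 antisense genes.

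**Figure D1:**
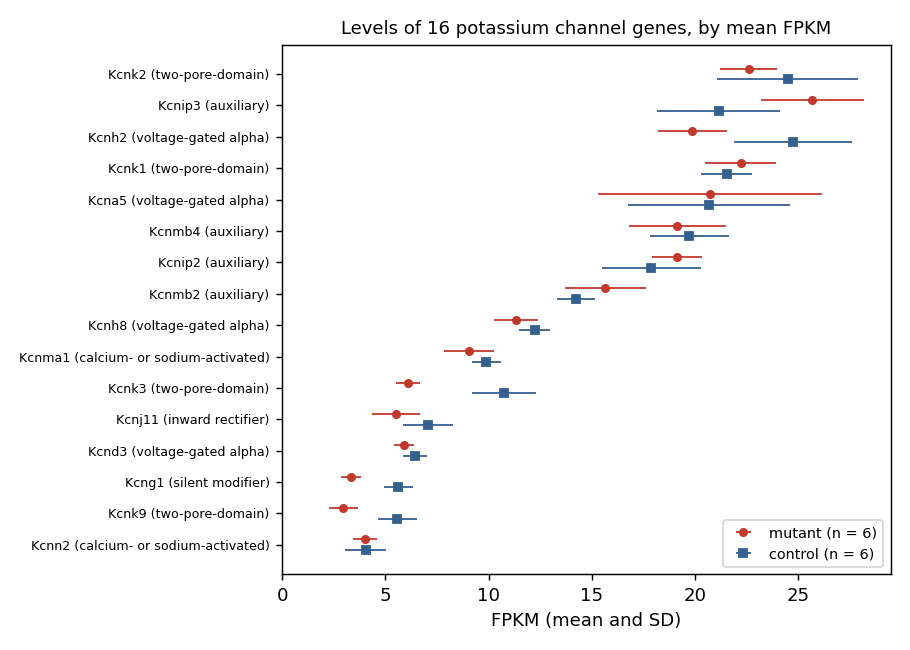
Mean FPKM with SD (bars, n = 6 libraries per group) of 16 members described in the text, in order of mean level, mutant (circles) above control (squares), with the class in brackets. The first 7 members lie between 17.9 and 25.7 FPKM in both groups, and Kcnk3, Kcng1 and Kcnk9 stand out by the gap between their groups.

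The order at the top of the scale differed in name between the groups, while neighbours in each order had SD ranges that overlapped. In mutant glands Kcnip3 was first with 25.7 ± 2.49 FPKM, followed by Kcnk2 with 22.6 ± 1.38 and Kcnk1 with 22.2 ± 1.72 (SD, n = 6). In control glands Kcnh2 was first with 24.7 ± 2.84 FPKM, followed by Kcnk2 with 24.5 ± 3.42 and Kcnk1 with 21.5 ± 1.23 (SD, n = 6). Kcnk1 and Kcnk2 are both leak channels, the second opened by stretch and lipids. The FPKM of Kcnip3 in relation to its CPM was 0.87 times the usual value in both mutant replicate 0 and control replicate 0, so that its order in FPKM is less certain than its comparison in CPM.

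The summed level of the set differed by less than its SD. Over the 95 members it was 375.9 ± 14.8 FPKM in mutant glands and 383.9 ± 15.8 FPKM in control glands (SD, n = 6 each). The two-pore-domain sum was 61.2 ± 2.96 FPKM in mutant glands (57.1 to 64.4) and 69.3 ± 4.74 FPKM in control glands (65.1 to 78.2), and these ranges did not overlap. The auxiliary sum was 111 ± 4.64 FPKM in mutant glands and 102 ± 5.56 FPKM in control glands, with ranges that overlapped. Among the others the voltage-gated sum was 129.8 ± 7.21 FPKM in mutant and 138.8 ± 6.71 FPKM in control glands. The inward rectifier sum was 32.0 ± 2.99 FPKM in mutant and 33.3 ± 1.6 FPKM in control glands, and that of calcium- or sodium-activated channels 29.4 ± 2.25 FPKM in mutant and 29.1 ± 2.06 FPKM in control glands. Sums were not tested, and a difference in a sum need not come from its most abundant members. The two-pore-domain sum contains Kcnk3 (6.09 FPKM in mutant and 10.7 FPKM in control glands) and Kcnk9 (2.96 FPKM and 5.58 FPKM). Both are called lower below. Its most abundant members, Kcnk2 and Kcnk1, had 22.6 and 22.2 FPKM in mutant and 24.5 and 21.5 FPKM in control glands. Levels in a whole gland do not tell fewer cells of a type from less RNA per cell.

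Of the 95 members 54 passed the filter on low values, and 1 of them, Kcnrg, passed it only through mutant libraries. Kcnmb3 averaged 1.85 FPKM in mutant and 0.82 FPKM in control glands, and control libraries alone would not have passed it. The edgeR test called 3 members higher in mutant glands, where 4.3% of all 15246 genes tested were called higher, and 5 members lower, where 2.75% of all genes were called lower. In either direction these were 8 members, against 7.05% of all genes. The first count is near its background (5.56% of tested members) and the second is above it (9.26%). The genes that rose were Kcnrg and 2 auxiliary subunits, Kcnmb3 and Kcnip3. The genes that fell encode pore-forming or modifying subunits: the leak channels Kcnk3 and Kcnk9, the silent modifier Kcng1, and the voltage-gated Kcnd2 and Kcnh2. The other 46 were not called. This division by class holds only for members that passed the filter. The fit without it, given below, also called the inward rectifier pores Kcnj16 and Kcnj13 higher. It added the auxiliary Kcnmb1 as higher and the silent modifier Kcng4 as lower. The median log2 fold change of tested members was -0.025, against -0.0036 over all genes tested, with 26 members above 0 and 28 below. With library totals in place of TMM scaling the counts over all genes were 734 higher and 282 lower, against 656 and 419 with TMM, and those of the members did not move.

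**Figure D2:**
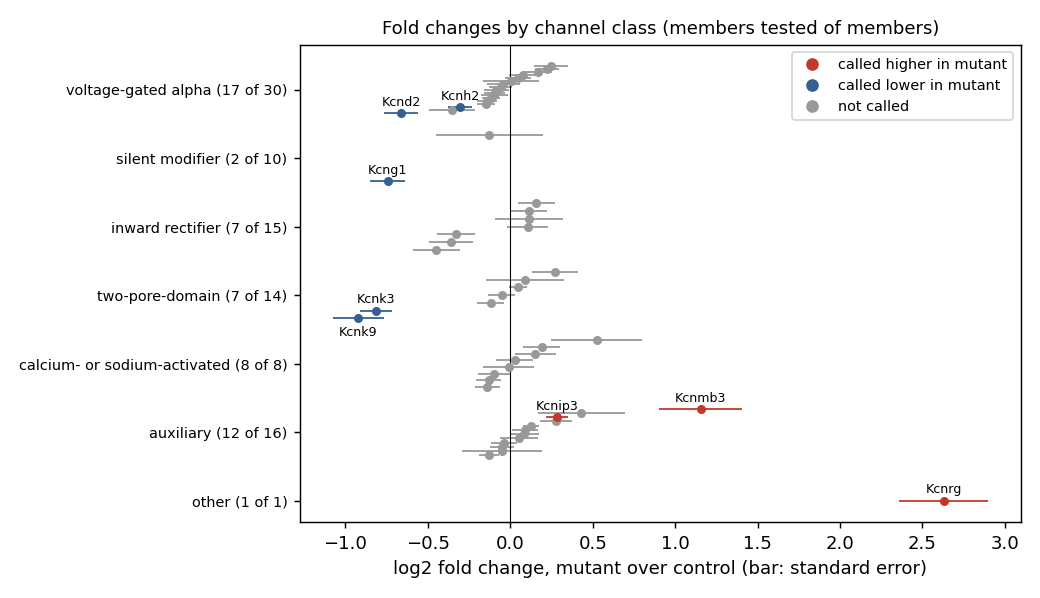
Log2 fold change, mutant over control, with its standard error (bars) for the 54 tested members by class. Called members are in colour and named. Among these tested members all called channel pores and the silent modifier lie left of 0, and the 2 called auxiliary subunits and Kcnrg lie right of it. Members below the filter are not shown.

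The 2 leak channels that fell are both acid-sensitive channels of the TASK type. Kcnk3 (chromosome 5, 30588170 to 30625271, plus strand, GRCm38) had a lowest, median and highest value of 21.1, 22.4 and 26.8 CPM in mutant libraries, against 30.4, 41.8 and 46.4 CPM in control libraries. Every mutant library lay below every control library. On average the mutant level was 0.569 times that of controls (edgeR log2 fold change -0.81, SE 0.0973, adjusted p = 0.00012). A gene on the other strand, Gm9899, shares 229 exonic bases with Kcnk3, 5.76% of its exons, and the libraries keep no strand. Gm9899 itself averaged 3.33 ± 0.475 CPM in mutant and 3.69 ± 0.503 CPM in control libraries (SD, n = 6 each).

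Kcnk9 (chromosome 15, 72501089 to 72546340, minus strand), which can pair with the product of Kcnk3 in 1 channel, showed the same pattern at a lower level. Its values were 1.93, 3.08 and 3.83 CPM (lowest, median, highest) in mutant libraries and 4.90, 5.53 and 7.66 CPM in control libraries. The groups did not overlap, and the highest value of all was that of control replicate 4. Its mean in mutant glands was 0.529 times that in control glands (edgeR log2 fold change -0.92, SE 0.154, adjusted p = 0.00223). Of the other 5 leak channels tested edgeR and DESeq2 called 0, and the unadjusted edgeR p was under 0.05 for 0 of them, and their log2 fold changes ran from -0.12 for Kcnk2 to 0.27 for Kcnk12. Kcnk1 had 43.7, 46.4 and 53.5 CPM in mutant libraries and 42.9, 46.4 and 49.1 CPM in control libraries, which lay over each other.

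Kcng1 (chromosome 2, 168260117 to 168281736, minus strand) encodes a silent modifier that joins the delayed rectifier subunits of the Kcnb genes. Its values were 6.24, 7.02 and 8.96 CPM in mutant libraries and 10.7, 11.8 and 14.9 CPM in control libraries, with no overlap. Mutant libraries averaged 0.598 times the control level (edgeR log2 fold change -0.74, SE 0.105, adjusted p = 0.00053). The other modifier that passed the filter, Kcns1, averaged 2.87 ± 0.818 CPM in mutant and 3.12 ± 1.87 CPM in control libraries (SD, n = 6 each) and was not called.

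Among the voltage-gated pores Kcnd2 and Kcnh2 fell. Kcnd2 (chromosome 6, 21215503 to 21729805, plus strand) carries the fast A-type current that delays firing. Its values were 8.80, 10.4 and 13.7 CPM in mutant libraries and 15.0, 16.1 and 19.8 CPM in control libraries. The groups did not overlap, although mutant replicate 4 stood above the rest of its group. On average the mutant level was 0.632 times that of controls (edgeR log2 fold change -0.66, SE 0.102, adjusted p = 0.00117). Kcnd3, which carries the same type of current and was more abundant, averaged 36.5 ± 2.19 CPM in mutant and 40.3 ± 3.51 CPM in control libraries (SD, n = 6 each) and was not called (edgeR log2 fold change -0.14, SE 0.0597, adjusted p = 0.176).

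Kcnh2 (chromosome 5, 24319589 to 24351604, minus strand) encodes the ERG channel, known for its slow current in lactotropes of the rat. Its values were 73.4, 82.2 and 94.2 CPM in mutant libraries and 90.5, 106 and 116 CPM in control libraries. The highest 2 mutant libraries overlapped the lowest 2 control libraries. Its mean in mutant glands was 0.81 times that in control glands (edgeR log2 fold change -0.30, SE 0.0747, adjusted p = 0.0268). The call was lost in 9 of 23 alternatives, among them leaving out single libraries, where the edgeR adjusted p ran from 0.0159 to 0.0666: it passed 0.05 without control replicates 1, 4 or 5, or without mutant replicates 1, 2, 3 or 4. The remaining 15 voltage-gated pores tested had log2 fold changes no lower than -0.35, the value of Kcnh6. None was called by edgeR or DESeq2, and 5 had an unadjusted edgeR p under 0.05.

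The Kcna and Kcnq genes, which encode Shaker-type channels and the channels of the M-current, had no member called by edgeR or DESeq2. Of 8 Kcna genes 2 were tested and 0 had an unadjusted p under 0.05, and of 5 Kcnq genes 3 were tested and 2 had such a p. Kcna5 made up 86.0% of the summed Kcna FPKM, and its values were 39.0, 59.2 and 83.0 CPM in mutant libraries and 44.1, 62.8 and 72.3 CPM in control libraries. The mutant libraries spanned the whole control range, with an SD of 15.7 CPM in mutant and 11.5 CPM in control libraries. Kcnq1ot1, the noncoding RNA, was below the filter and averaged 53.3 ± 8.89 CPM in mutant and 52.2 ± 9.37 CPM in control libraries.

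The auxiliary subunits held 2 of the 3 members that rose. Kcnip3 (chromosome 2, 127456498 to 127522094, minus strand) encodes a calcium sensor that binds the Kcnd channels and is also known as a transcriptional repressor. Its values were 63.7, 70.7 and 72.4 CPM in mutant libraries and 51.7, 53.6 and 67.8 CPM in control libraries. Only control replicate 2 reached into the range of the mutant libraries. Mutant libraries averaged 1.22 times the control level (edgeR log2 fold change 0.28, SE 0.0681, adjusted p = 0.0235). The call was lost in 7 of 23 alternatives: both limma fits, and the fits without control replicates 1 or 3 or without mutant replicates 1, 2 or 4, while the adjusted p over all edgeR fits that leave out 1 library ran from 0.00241 to 0.0605. In the authors' deposited table the transcript NM_019789 of Kcnip3 had 25.0 FPKM in mutant and 20.9 FPKM in control glands, and NM_001111331 had 0.631 FPKM in mutant and 0.279 FPKM in control glands.

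Kcnmb3 (chromosome 3, 32471588 to 32492231, minus strand) encodes a beta subunit of the large-conductance calcium-activated (BK) channel and was present at a low level. Its values were 0.641, 0.976 and 1.54 CPM in mutant libraries and 0.289, 0.387 and 0.729 CPM in control libraries. Mutant replicate 0 lay below control replicate 2, and apart from this pair the groups did not cross. On average the mutant level was 2.23 times that of controls (edgeR log2 fold change 1.15, SE 0.252, adjusted p = 0.0137). The more abundant BK beta subunits were not called: Kcnmb2 averaged 42.7 ± 2.74 CPM in mutant and 39.2 ± 1.57 CPM in control libraries, and Kcnmb4 averaged 16.1 ± 1.6 CPM in mutant and 16.6 ± 1.65 CPM in control libraries (SD, n = 6 each). Kcnma1, the BK pore itself, averaged 49.7 ± 6.14 CPM in mutant and 54.4 ± 4.36 CPM in control libraries and was not called (edgeR log2 fold change -0.13, SE 0.0777, adjusted p = 0.35).

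The edgeR test called no member among 7 inward rectifiers and 8 calcium- or sodium-activated channels tested. The unadjusted p was below 0.05 for 3 inward rectifiers and for 0 of the calcium- or sodium-activated class. DESeq2 called 1, the inward rectifier Kcnj4, named for this call after its values were seen. Kcnj4 averaged 2.62 ± 0.477 CPM in mutant and 3.57 ± 0.63 CPM in control libraries (SD, n = 6 each; edgeR log2 fold change -0.45, SE 0.143, adjusted p = 0.0789). Kcnj11 encodes the pore of the ATP-sensitive channel, and its values were 14.1, 14.8 and 22.7 CPM in mutant libraries and 15.3, 21.4 and 25.0 CPM in control libraries. Mutant replicate 5 stood far above the other 5 mutant libraries. With it the edgeR log2 fold change was -0.36 (SE 0.135, adjusted p = 0.131), and without it -0.48 (adjusted p = 0.0211). This is 1 of 23 alternatives, and the call was absent in the other 22. The regulatory subunits of that channel, Abcc8 and Abcc9, were not called.

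Kcnrg (chromosome 14, 61607457 to 61612826, plus strand), whose promoter is shown first above, had the highest fold change among tested members. Its values were 2.67, 3.76 and 8.11 CPM in mutant libraries and 0.579, 0.680 and 0.791 CPM in control libraries. The groups did not overlap, and mutant replicate 0 was far above the next mutant library at 4.38 CPM. Its mean in mutant glands was 6.23 times that in control glands (edgeR log2 fold change 2.63, SE 0.268, adjusted p = 2.94e-05). In the authors' deposited table both Kcnrg transcripts were higher in mutant glands: NM_206974 had 2.06 FPKM in mutant and 0.354 FPKM in control glands, and NM_001039105 had 1.38 FPKM in mutant and 0.141 FPKM in control glands.

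**Figure D3:**
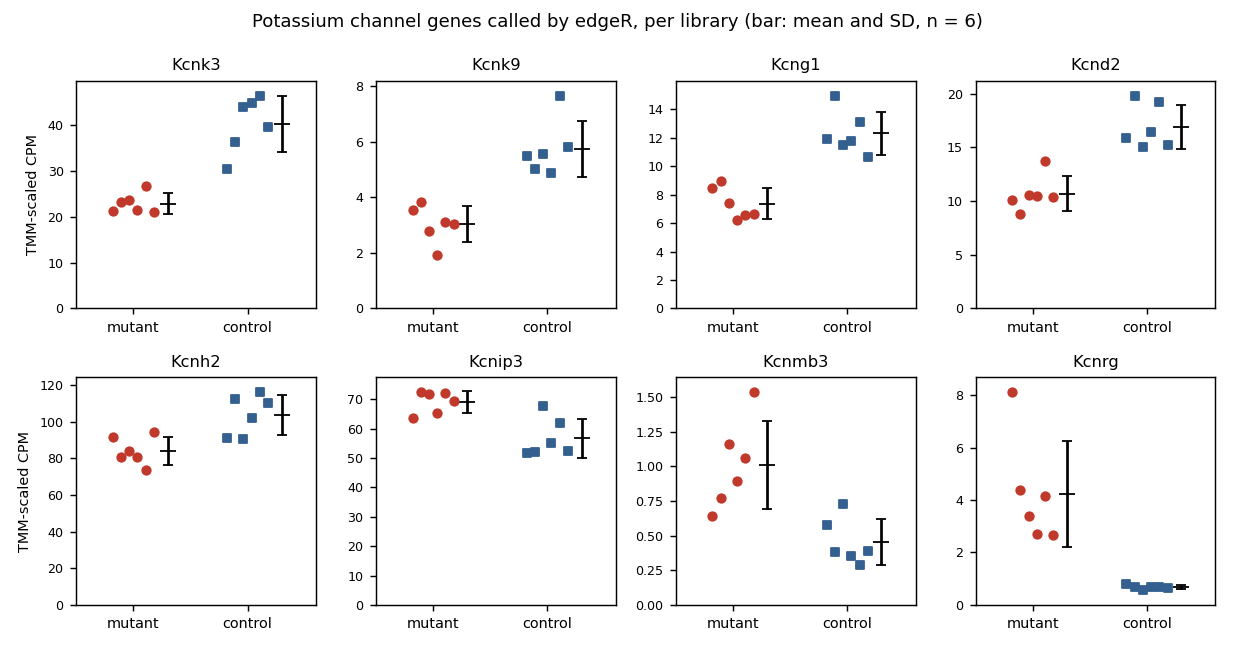
TMM-scaled CPM of the 8 called members in each library, mutant (circles) left of control (squares), with mean and SD (n = 6 each). Kcnk3, Kcnk9, Kcng1, Kcnd2 and Kcnrg have no overlap between groups, and Kcnh2, Kcnip3 and Kcnmb3 overlap.

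Without overlap between groups were 1 tested member that was higher in mutant glands (Kcnrg, which passed the filter only through mutant libraries and so had to differ) and 4 that were lower (Kcnk3, Kcnk9, Kcng1, Kcnd2), where 2.91% and 1.37% of all genes tested had this pattern in these directions. The filter removed members of low level, and a fit without it was read for them. It tested 94 members and called 6 higher and 6 lower, where 4% and 2.08% of 24285 genes were called in these directions and 6.08% in either. Added were Kcnj16, Kcnj13 and Kcnmb1 as higher and Kcng4 as lower. In this fit 3 members that were higher and 5 that were lower had no overlap between groups, where 2.98% and 0.98% of genes had this pattern. Kcnmb1 was named after its values were seen.

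Kcnj16 (chromosome 11, 110968033 to 111027968, plus strand) encodes an inward rectifier subunit known from kidney tubules and other transporting epithelia, where it pairs with the product of Kcnj10. Its values were 1.01, 1.63 and 4.11 CPM in mutant libraries and 0.178, 0.262 and 0.370 CPM in control libraries. The groups did not overlap. Mutant libraries averaged 7.18 times the control level (edgeR without a filter, log2 fold change 2.81, SE 0.364, adjusted p = 0.000186). The partner Kcnj10, chosen after its values were seen, averaged 1.33 CPM in mutant and 0.975 CPM in control libraries and was not called (edgeR without a filter, log2 fold change 0.43, SE 0.439, adjusted p = 0.649).

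Kcnj13 (chromosome 1, 87386363 to 87394729, minus strand), an inward rectifier of pigment epithelium and choroid plexus, had 0.589, 1.32 and 2.21 CPM in mutant libraries and 0.541, 0.636 and 0.815 CPM in control libraries. Mutant replicate 5 lay among the controls and the other 5 above them. The edgeR fit without a filter gave a log2 fold change of 1.1 (SE 0.251, adjusted p = 0.0169), a call lost in 4 of 21 alternatives. Gigyf2 on the other strand shares 623 exonic bases with it, 49.1% of its exons, so that reads of both cannot be told apart. Gigyf2 averaged 118 ± 4.34 CPM in mutant and 119 ± 4.68 CPM in control libraries (SD, n = 6 each).

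Kcnmb1 (chromosome 11, 33963013 to 33973641, plus strand), the BK beta subunit best known from smooth muscle, had 0.357, 0.714 and 1.13 CPM in mutant libraries and 0.131, 0.290 and 0.355 CPM in control libraries. The groups touched without overlap. The edgeR fit without a filter gave a log2 fold change of 1.37 (SE 0.306, adjusted p = 0.0141), a call lost in 2 of 21 alternatives. The summed level of 6 mural and smooth muscle markers was 197 to 224 CPM in mutant and 214 to 244 CPM in control libraries, most of it from Pdgfrb. Of these markers 5 were tested, and 1, the smooth muscle actin gene Acta2, was called, as lower in mutant glands (edgeR log2 fold change -0.80, SE 0.147, adjusted p = 0.00455).

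Kcng4 (chromosome 8, 119623854 to 119635680, minus strand), a silent modifier like Kcng1, had 0.420, 0.554 and 0.599 CPM in mutant libraries and 0.763, 0.961 and 1.06 CPM in control libraries, again with no overlap. The edgeR fit without a filter gave a log2 fold change of -0.83 (SE 0.144, adjusted p = 0.00253). The ratio of means, mutant over control, was 0.565 for Kcng4 and 0.598 for Kcng1. The other Kcng genes, also below the filter, were not called in this fit: Kcng2 averaged 1.20 ± 0.224 CPM in mutant and 0.968 ± 0.0911 CPM in control libraries, with a log2 fold change in the other direction (0.30, SE 0.139, adjusted p = 0.254), and Kcng3 averaged 0.973 ± 0.346 CPM in mutant and 1.08 ± 0.27 CPM in control libraries (SD, n = 6 each). The summed Kcng level was 4.23 ± 0.538 FPKM in mutant and 6.56 ± 0.720 FPKM in control glands (SD, n = 6 each).

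**Figure D4:**
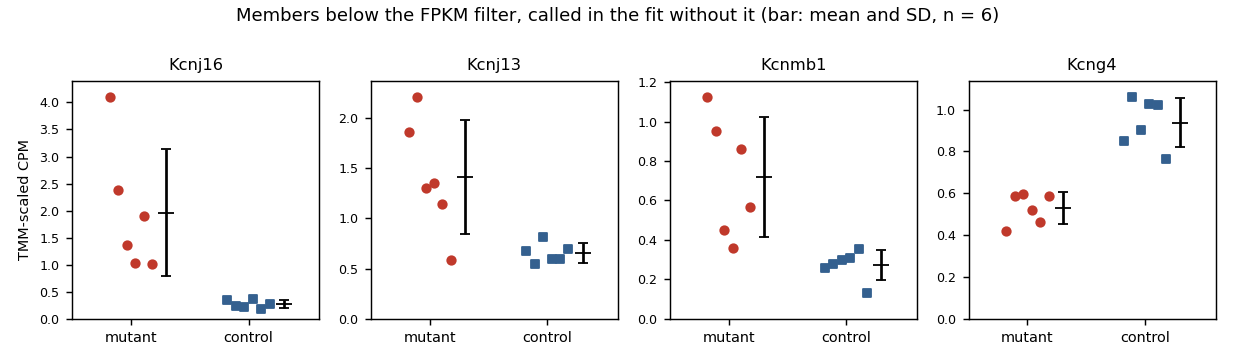
TMM-scaled CPM in each library of 4 members below the filter that were called in the fit without it, mutant (circles) left of control (squares), with mean and SD (n = 6 each). Kcnj16, Kcnmb1 and Kcng4 have no overlap between groups, and mutant replicate 5 of Kcnj13 lies among the controls.

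The authors' deposited table marks 10 members as changed where the q-value does not exceed 0.05 and the fold reaches 1.5. It marks 2.95% of 18309 genes as higher and 0.661% as lower. In that table the members marked higher in mutant glands are Kcnrg, Kcnj16, Kcnmb3 and Kcnv1, and those marked lower are Kcnk3, Kcnk9, Kcng1, Kcng4, Kcnd2 and Kcnc4. Kcnv1 and Kcnc4 were not called by edgeR without a filter (log2 fold change 0.72, SE 0.226, adjusted p = 0.081 for Kcnv1, and -0.64, SE 0.221, adjusted p = 0.114 for Kcnc4). Both had overlapping groups. Kcnh2 and Kcnip3 are not marked there, and their folds are under 1.5. Of the members added by the fit without a filter, Kcnj13 is not marked either (log2 fold change 1.11, Cuffdiff q-value 0.711). Kcnmb1 was not tested there.

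Marker lists of several cell types differed between the groups and are given here beside the members. The share of all genes tested that was called higher was 4.3%, and lower 2.75%. Some markers passed the filter only through mutant libraries and so had to differ, which held for 3 of motile ciliated cells, 3 of basal stratified epithelium and 2 of ionocytes. Motile ciliated cells had 10 listed markers, of which 7 were among the 27129 genes. These 7 were called higher, 4 of them apart from such markers, with sums of 127 to 221 CPM in mutant and 78.3 to 89.4 CPM in control libraries. Of 8 markers of basal stratified epithelium 7 were tested and called higher, 4 apart from such markers (56.4 to 123 CPM in mutant, 12.4 to 17.6 CPM in control libraries), as were 7 of 8 tested markers of simple and secretory epithelium (196 to 306 CPM in mutant, 82.2 to 111 CPM in control libraries) but not Cldn7. The ninth marker of that epithelium, Scgb1a1, was nearly absent and not tested (means of 0.0027 CPM in mutant and 0.0034 CPM in control libraries). Of 5 ionocyte markers 3 were tested and called higher, of which Atp6v1b1 alone had not passed through mutant libraries only, and Cftr and Atp6v0d2 were not tested (sums of 9.95 to 15.8 CPM in mutant, 3.91 to 4.86 CPM in control libraries). Of 6 progenitor markers 2 were called higher (Sox2 and Cdh1), with sums of 316 to 374 CPM in mutant and 243 to 314 CPM in control libraries. Among the hormone lineages, all 5 thyrotrope markers were called lower (343 to 432 CPM in mutant, 580.3 to 947 CPM in control libraries), as were 3 of 5 gonadotrope markers (58.3 to 114 CPM in mutant, 216 to 778 CPM in control libraries). Cga stood in both lists and was counted as called in each. It averaged 64.5 CPM in mutant and 318 CPM in control libraries, where the gonadotrope sum averaged 80.5 CPM and 394 CPM. No marker of these lists that had values was at 0 in all libraries.

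Some libraries stood at the same end in members and in marker sums. Mutant replicate 0 had the highest sums of ciliated, basal and simple epithelial markers and of ionocytes, and it also had the highest Kcnrg, Kcnj16 and Kcnmb1. Other members that were higher in mutant glands did not follow: mutant replicate 0 had the lowest Kcnip3 and the lowest Kcnmb3 of the mutant libraries, and Kcnj13 was highest in mutant replicate 1. Mutant replicate 5 had the lowest of all 4 sums and the lowest Kcnrg, Kcnj16 and Kcnj13. In their mutant values Kcnrg and Kcnj16 put the 6 libraries in the same order, highest in replicate 0 and then in 1, 4, 2, 3 and 5. Control replicate 4 had the highest gonadotrope sum and the highest Kcnk9 and Kcnk3 of the control libraries. It also had the highest control sums of thyrotrope markers (947 CPM) and of somatotrope and lactotrope markers (55361 CPM, of which Gh made up 54859 CPM). The libraries with high Xist, control replicate 4 and mutant replicates 0 and 3, had the highest gonadotrope sums of their groups. The part of these cell types in the members' values was not tested.

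**Figure D5:**
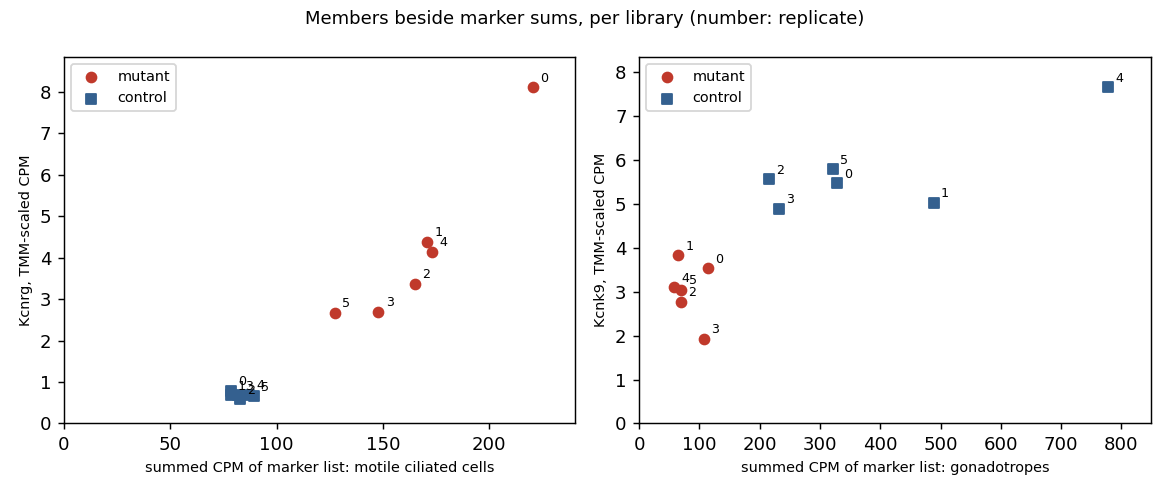
Each library by the summed CPM of a marker list (x axis) and the TMM-scaled CPM of a member (y axis), mutant as circles and control as squares, with replicate numbers. Kcnrg beside the ciliated cell list is on the left, with mutant replicate 0 at the top right, and Kcnk9 beside the gonadotrope list is on the right, with control replicate 4 at the top right.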

How the data were processed

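Total RNA was sequenced as unstranded TruSeq v2 libraries, per the labels' protocols. The submitters' processing notes name build mm10, Cuffdiff 2.1.1 with Cufflinks, Bowtie2 2.1.0, TopHat2 2.0.9 and FastQC 0.10.1. The authors deposited estimated counts of fragments and FPKM per library, per the file headers, and 89.99% to 90.41% of counts above 0 were whole. A further set of 12 scaled columns was left aside. The authors' deposited comparison holds the log2 fold change and q-value of genes and transcripts, and Kcn entries were read from it as marked there.

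Estimated counts were rounded and tested with edgeR 4.0.16 (R 4.3.3, quasi-likelihood, TMM, no covariate, Benjamini-Hochberg) over 15246 genes with at least 1 FPKM in at least 6 libraries. Standard errors came from the log2 fold change and F. P-values measure the spread between these libraries, which the design calls individual samples. On simulated counts for 15246 genes and this comparison edgeR called 64% of 50 genes changed 1.25-fold, 80% at 1.5-fold and 100% at 2-fold, with 2 of 15046 unchanged genes called. Changed genes were drawn only from those above a minimum mean count. Counts were drawn independently for each gene and library, with the spread fitted to these data. Shifts shared by many genes of a library were not simulated, so these shares may not carry over to the real libraries. Alternatives were other scalings, filters, DESeq2 1.42.0, limma 3.58.1, covariates and left-out libraries. No 2 libraries of a group were alike within counting error (chi-square over its degrees of freedom 13.9 to 35.3 in 30 pairs).

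Members, lists and tests were chosen with earlier results of these data known. Named were called members, the 10 of highest FPKM, the highest of each subfamily, tested members without overlap, members off the filter with an absolute log2 fold change of at least 1 and at least 1 CPM, those the authors marked, called related genes and Isl1, and some that met this rule are not reported here. Marker lists numbered 19 and related lists 8. The marker lists not given in the report overlapped between the groups in their sums. Gene positions are from GENCODE M21, which held all 95 members, and promoters from RefSeq (70 of 95 matched). Overlapping exons were counted on both strands.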

Additional observations from a re-analysis of the deposited data

Results flagged for a closer look

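Among 72 groups of 6 libraries (36 genes), 5 held a single library far from the rest, as judged by Dixon's ratio of the gap to the group's range. Chance gives about 1 in 20 groups. Kcnrg was 8.11 CPM in mutant replicate 0, and the next mutant library had 4.38 CPM. Kcnd2 was 13.7 CPM in mutant replicate 4, against 10.6 CPM in the next mutant library, and stayed below every control library. Kcnj11 was 22.7 CPM in mutant replicate 5, against 16.7 CPM in the next. Kcnk9 was 7.66 CPM in control replicate 4, against 5.80 CPM in the next control library, and Kcnma1 was 62.5 CPM in the same library, against 54.3 CPM.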

How the results depend on the processing

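The count of 5 lower members became 5 to 6 with other scalings, filters, tools and covariates and 4 to 6 when libraries were left out. The count of 3 higher members became 6 both without a filter and with edgeR's filterByExpr, 2 with limma, and 2 to 3 when libraries were left out. Kcnk3, Kcnk9, Kcng1, Kcnd2, Kcnrg, Kcnmb3, Kcnj16 and Kcng4 kept their calls under every alternative run. Over all genes, higher calls fell to 379 and lower calls to 144 without the 3 libraries with high Xist (control replicate 4, mutant replicates 0 and 3), an alternative chosen after seeing the data. Lower calls over all genes were 807 with DESeq2 and 216 and 214 with limma on log2(FPKM + 1) and log2(FPKM + 0.1), and ran from 197 to 443 when single libraries were left out (197, 259 and 273 without control replicates 1, 3 and 4, and 237, 211, 239 and 248 without mutant replicates 1, 2, 3 and 4). Related genes called were 8 with DESeq2. The cause of these shifts was not tested. The share of higher calls over all genes was 61.0% with TMM, 72.2% with library totals, 70.5% and 70.3% with limma and 72.5% without the high-Xist libraries. Sign changes concerned only members that were not called. Kcna5 had -0.0028 without a filter, -0.0016 with filterByExpr, -0.015 and -0.016 with limma, -0.014 with the block, and -0.10 to 0.11 leaving out single libraries. Kcnk2 had 0.0051 without the high-Xist libraries. Kcnmb4 had 0.015 both there and without both libraries numbered 0, and -0.081 to 0.010 leaving out single libraries. Kcnn2 had 0.0067 with library totals, 0.0017 and 0.0052 with limma, 0.0035 with the block, 0.043 without the libraries numbered 0, 0.22 without the high-Xist libraries, and -0.069 to 0.097 leaving out single libraries. Leaving out single libraries, Kcnq1ot1 ran from -0.038 to 0.10, Kcns1 from -0.26 to 0.21, and Kcnv2 from -0.15 to 0.14. Kcns1 had 0.0012 with limma at a pseudocount of 0.1. Kcnv2 had -0.00019 with DESeq2, -0.0050 and -0.029 with limma, and -0.040 with the block. Over all alternatives Kcnq1ot1 reached 0.16, Kcns1 -0.36 and Kcnv2 0.35. Same-numbered libraries deviated together in 2 of 6 pairs, replicates 0 (correlation 0.203) and 2 (0.426), each also highest with its own number, and not in the other pairs (-0.0901 to 0.0575), so that the numbers were not taken to pair the libraries. With the replicate block 3 members were higher and 5 lower, and 672 and 401 genes overall. The 5 lower members were not the same genes: Kcnh2 was not called with the block (adjusted p = 0.0584), and Kcnj6, named after its values were seen, was (log2 fold change -0.33, adjusted p = 0.0343).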

Other observations

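Genes outside the Kcn names that act with potassium channels were read from 8 lists chosen with earlier results known. They hold 40 genes, of which 29 were tested and edgeR called 5 in either direction, where 7.05% of all genes tested were called. Dpp10, an auxiliary subunit of the A-type channels formed by Kcnd2, had 20, 22.1 and 25.1 CPM (lowest, median, highest) in mutant libraries and 31.9, 34.1 and 39.6 CPM in control libraries, without overlap (edgeR log2 fold change -0.65, SE 0.0621, adjusted p = 1.75e-05). Its relative Dpp6 averaged 103 CPM in mutant and 111 CPM in control libraries and was not called. Kcnd2 had a log2 fold change of -0.66 and the calcium sensor Kcnip3 one of 0.28, a call lost in 7 of 23 alternatives. Of 4 Kcnip genes tested edgeR called 1, Kcnip3. Kcnip2 was not called (edgeR log2 fold change 0.089, adjusted p = 0.57).

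Lrrc26, a gamma subunit that lets BK channels open at rest in secretory epithelia, had 2.52, 2.91 and 3.62 CPM in mutant libraries and 0.386, 0.547 and 0.771 CPM in control libraries, without overlap (edgeR log2 fold change 2.40, SE 0.157, adjusted p = 2.4e-06). Lrrc26 passed the filter only through mutant libraries and so had to differ. Fxyd3, a regulator of the sodium-potassium pump, had 1.01, 1.23 and 2.14 CPM in mutant libraries and 0.321, 0.451 and 0.617 CPM in control libraries, also without overlap (edgeR log2 fold change 1.66, SE 0.225, adjusted p = 0.00037). The pump subunit Atp1b2 averaged 90.8 ± 6.69 CPM in mutant and 110.2 ± 5.70 CPM in control libraries (SD, n = 6 each; edgeR log2 fold change -0.28, SE 0.05, adjusted p = 0.00377). Hcn4, a pacemaker channel, averaged 16.6 ± 3.27 CPM in mutant and 22.2 ± 2.82 CPM in control libraries (SD, n = 6 each; edgeR log2 fold change -0.42, SE 0.119, adjusted p = 0.0488), a call that was lost in 14 of 23 alternatives. The edgeR test called 0 of 2 regulatory genes of the ATP-sensitive channel, 0 of 5 potassium-coupled chloride transporters and 0 of 3 in the list of TMEM175 and TMEM38 channels. Unadjusted p was under 0.05 for 0, 1 and 2 of these genes, and DESeq2 called 0, 1 (Slc12a4) and 1 (Tmem38b).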
